A study of Mus musculus with 45 samples.

Results

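H3K9ac, acetylation of histone H3 at lysine 9, was profiled in the hippocampus of diseased and control mice by sequencing DNA that co-precipitates with an antibody to the mark (ChIP-seq). The domains described here are those that stand in sparse surroundings: autosomal domains 776 to 4999 bp wide with 10 or fewer other domain midpoints within 1 Mb on either side of their own midpoint. This rule, which uses positions and widths and no read counts, took 800 of the 44165 deposited domains (1.81%), and they are called desert domains below. They make up 3.83% of the 20872 autosomal domains of the same width range. The other 20072, with more than 10 neighbours, serve as the comparison and are called same-width domains. "Desert" refers to H3K9ac domains alone, since the gene content of these regions was not analysed here.

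The tau mice carry a MAPT transgene with the P301S mutation, which makes human tau prone to aggregate. At 6 months there were 2 libraries of tau and 3 of wild type (WT) females, and at 11 months 3 of each from males, so age and sex cannot be told apart. No source used here names the promoter that drives the transgene. CK-p25 mice, all females, are double transgenic. Inducing the transgenes makes forebrain neurons produce p25, a truncated protein that overactivates the kinase Cdk5. Induction began at 3 months of age, and tissue was taken 2 weeks (3.5 months of age) or 6 weeks (4.5 months) later. Littermates labelled CK served as controls, and each of these groups has 3 libraries. The aim was to find H3K9ac differences between diseased and control animals. Each library holds all cells of the hippocampus, so fewer cells of a type and less H3K9ac per cell cannot be told apart.

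H3K9ac marks active promoters and enhancers, where acetylation goes along with open chromatin and transcription. In mammalian genomes such elements crowd in gene-rich regions. Long gene-poor regions hold few of them, are often bound to the nuclear lamina in a compact state, and contain many of the large genes of neuronal adhesion and synapse formation. Domains in such surroundings can be promoters of isolated genes or distal enhancers, and the deposited files do not say which.

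Desert domains were slightly wider than others of the range and lay far from them. Their median width was 1766 bp (quartiles 1196 and 2519), against 1642 bp in same-width domains. They had a median of 7 neighbours, against 67. The median distance to the nearest other domain was 37.0 kb, against 4.96 kb. Of the 800, 166 (20.8%) had no domain within 200 kb, compared with 0.732% of same-width domains, and 289 (36.1%) had one within 10 kb. Desert domains can thus form small clusters in empty surroundings. At the limit of the rule, 94 had 10 neighbours, and 98 domains just outside it had 11. At the other end 9 domains had no neighbour at all.

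All autosomes held desert domains, in unequal shares. On chromosome 13, 55 of 791 same-width-range domains (6.95%) were in deserts, followed by chromosome 1 (72 domains, 6.31%) and chromosome 3 (59, 6.01%). On chromosome 11 there were 14 of 1757 (0.797%). Joining members whose midpoints lay at most 1 Mb apart gave 307 stretches, of which 126 held a single member and 48 held 5 or more. The longest by number, chr13:117798528-120277221, held 10 members among 14 domains in 2.48 Mb. Members of a stretch are neighbours and may share regulation, so they are not independent of each other.

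Taken over the whole width range, the level of the mark was not lower in deserts. Levels are given as reads in a library scaled by TMM to 1 M domain reads (CPM), and per kb of width where domains are compared. The median over the 800 was 18.6 CPM per kb (range 6.23 to 178). Library by library, the median of desert domains lay between 16.8 and 19.9 CPM per kb, while that of same-width domains lay between 16.1 and 17.0, and desert domains were higher in all 23 libraries. This did not hold at every width. In the tau series deserts had 11.4 against 10.1 CPM per kb at 776 to 1499 bp and 23.6 against 22.5 at 1500 to 2499 bp. At 2500 to 4999 bp they were lower, at 21.2 against 23.5 there and 21.5 against 23.6 in the CK-p25 series. Reads in the 800 came to 35334 to 214386 per library. All 800 had enough reads to be tested in both series, so no member was lost to the filter. Spread between replicates was also small: the median biological coefficient of variation was 0.0508 in the tau series and 0.0625 in the CK-p25 series, against 0.0554 and 0.0677 in same-width domains.

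A pair of desert domains on chromosome 2, chr2:98502230-98503269 and chr2:98506228-98507638, stood above the rest at 178 and 159 CPM per kb. The next highest, chr8:20019605-20020748, was at 64.9. Input DNA, sequenced without precipitation, was not analysed here, so whether the reads of this pair reflect H3K9ac was not checked. In the first of these, CK libraries at 6 weeks ranged from 188 to 513 CPM and CK-p25 libraries from 139 to 431, so replicates of one group differed more than groups did. Neither of the pair passed the test in any comparison. In tau mice at 11 months their log2 changes were 0.23 ± 0.08 and 0.25 ± 0.09 (SE), with edgeR adjusted p of 0.058 and 0.062. Of the 10 domains with the highest level per kb, the call was made once: chr12:10397215-10398758 was lower in tau mice at 11 months, at -0.22 ± 0.07 (edgeR adjusted p = 0.023).

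Library quality must be read beside the comparisons. Libraries of the tau series held 4.10 to 6.18 M reads in domains, and those of the CK-p25 series 0.996 to 4.13 M. The labels give each library a cross correlation, which is higher where the precipitation enriched more strongly. At 11 months it was 0.206 to 0.257 in tau mice and 0.296 to 0.342 in wild type mice, with no overlap. At 6 weeks it was 0.0639 to 0.137 in CK and 0.0737 to 0.177 in CK-p25 libraries. Both shallowest libraries, CK replicate 3 and CK-p25 replicate 3 at 6 weeks, held 0.996 and 1.31 M reads. Whether every library comes from its own animal is not stated, so the p-values below refer to the spread between libraries, which may be technical.

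Desert domains held a smaller share of all domain reads in the diseased mice. At 11 months tau mice had 3.29% ± 0.0744 (SD, n = 3) of their reads there, and wild type mice 3.49% ± 0.0299 (n = 3). The tau libraries were at 3.29%, 3.37% and 3.22%, all below the wild type libraries at 3.48%, 3.52% and 3.46%. In CK-p25 mice it was 3.39% ± 0.0571 against 3.48% ± 0.0636 in CK at 2 weeks, and 3.33% ± 0.0627 against 3.52% ± 0.0772 at 6 weeks (n = 3 each). At neither time did the groups overlap, although at 2 weeks the highest CK-p25 library, at 3.441%, lay just under the lowest CK library, at 3.443%. At 6 months tau mice had 3.45% ± 0.0567 (n = 2) and wild type mice 3.49% ± 0.0123 (n = 3), and the groups overlapped. These shares are a description without a test, since the domains were chosen with earlier results of these data known.

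**Figure D1:**
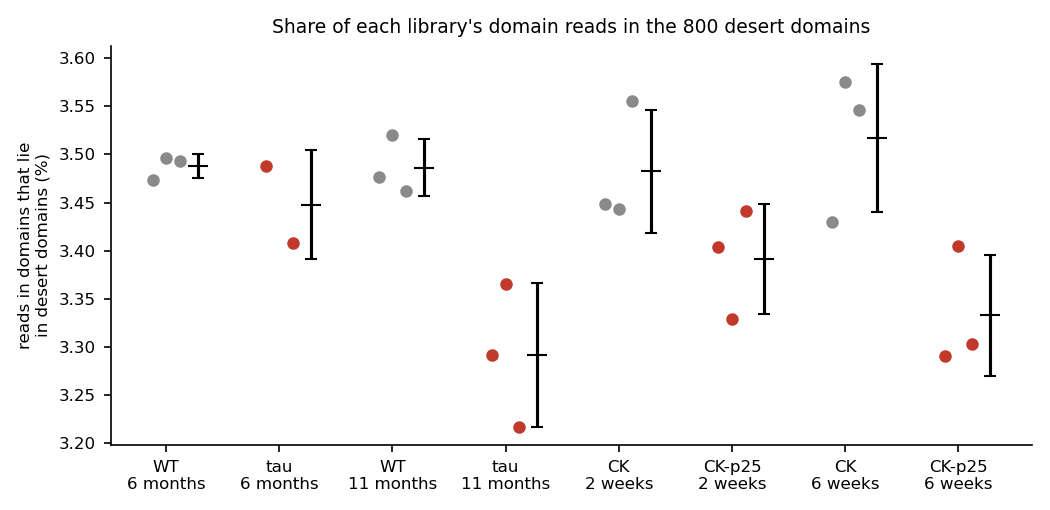
Percent of each library's domain reads that lie in the 800 desert domains (vertical axis, which does not start at 0), by group; points are libraries, and the bar with whiskers beside them is the group mean ± SD. Tau libraries at 11 months (3.22% to 3.37%) lie below all wild type libraries of that age (3.46% to 3.52%), and CK-p25 libraries lie below CK libraries at both times.

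In tau mice at 6 months, no desert domain differed from wild type. The edgeR test called 0 of 800, with a background of 0% over the 44105 domains tested, and DESeq2 also called 0. At an unadjusted p under 0.05 there were 23 (2.88%), against 3.23% of all domains. Log2 changes ran from -0.65 to 0.55, and the median standard error was 0.12. The median log2 change was -0.03, against 0.00 in same-width domains, and 39.9% of desert domains were positive. The smallest unadjusted p, 0.00139, belonged to chr18:7625417-7627370, at 29.3 ± 5.17 CPM (n = 2) in tau and 38.5 ± 2.75 CPM (n = 3) in wild type mice, with an edgeR adjusted p of 1.

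At 11 months 232 of the 800 desert domains (29%) differed between tau and wild type mice, and losses prevailed. The mark fell at 187 (23.4%) and rose at 45 (5.62%). Over all domains tested the edgeR test called 12% (7.56% lower, 4.4% higher), and among same-width domains 11.2% were lower and 6.23% higher. The share of gains in deserts was thus close to that elsewhere, and the share of losses was larger. Called losses had a median log2 change of -0.50 (range -1.75 to -0.17), and 67 were at least 1.5-fold. Called gains had a median of 0.50 (0.22 to 1.28), and 15 were at least 1.5-fold. The median over all 800 was -0.06, against 0.00 in same-width domains. With library totals in place of TMM the median was -0.01 in deserts and 0.05 over all domains, and 65 desert domains were higher and 158 lower.

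**Figure D2:**
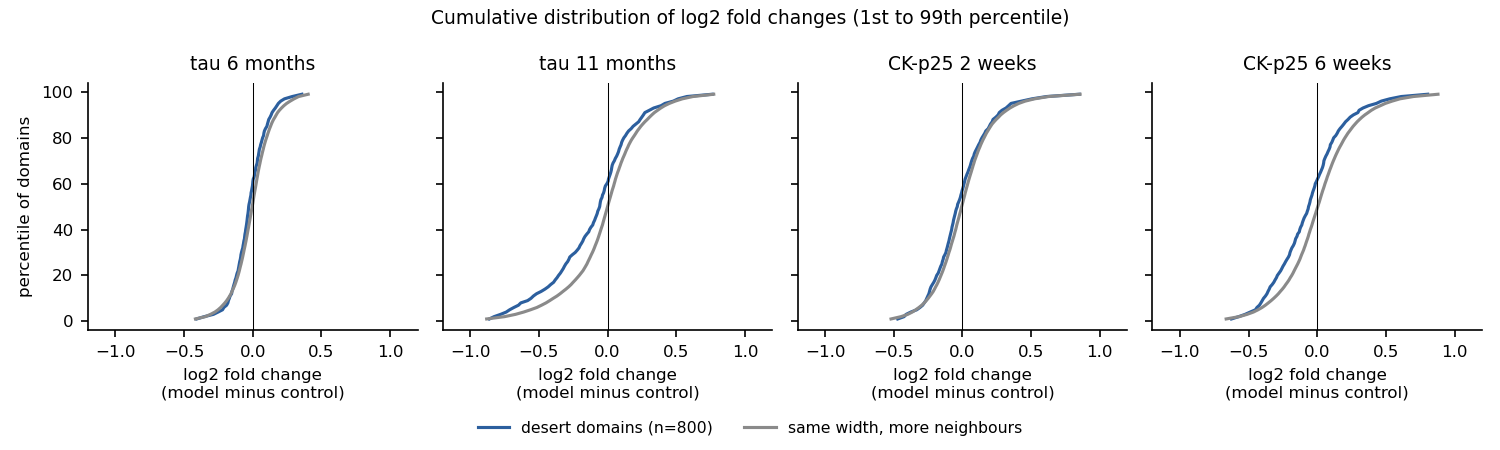
Cumulative distribution of log2 fold changes (horizontal axis, diseased minus control) of the 800 desert domains (blue) and of same-width domains with more neighbours (grey), one panel per comparison; the vertical axis is the percentile, from the 1st to the 99th. The blue curve lies left of the grey one on the negative side at 11 months and at 6 weeks, with medians of -0.06 in both against 0.00, while the upper tails meet.

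Losses were more frequent the fewer neighbours a domain had. Of the 243 domains with 5 or fewer neighbours 34.6% were lower in tau mice at 11 months, and of the 557 with 6 to 10 neighbours 18.5%. Outside the deserts the figure was 15.6% for 11 to 20 neighbours, 11.2% for 21 to 50, 10.8% for 51 to 100 and 10.7% above 100. The share of gains was 3.70% at 5 or fewer and between 5.48% and 6.46% in the other classes. At 6 weeks in CK-p25 mice the losses ran from 7.41% at 5 or fewer neighbours through 2.87% and 3.24% to 1.09% above 100. At 2 weeks losses were between 0.617% and 1.45% in all classes.

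**Figure D3:**
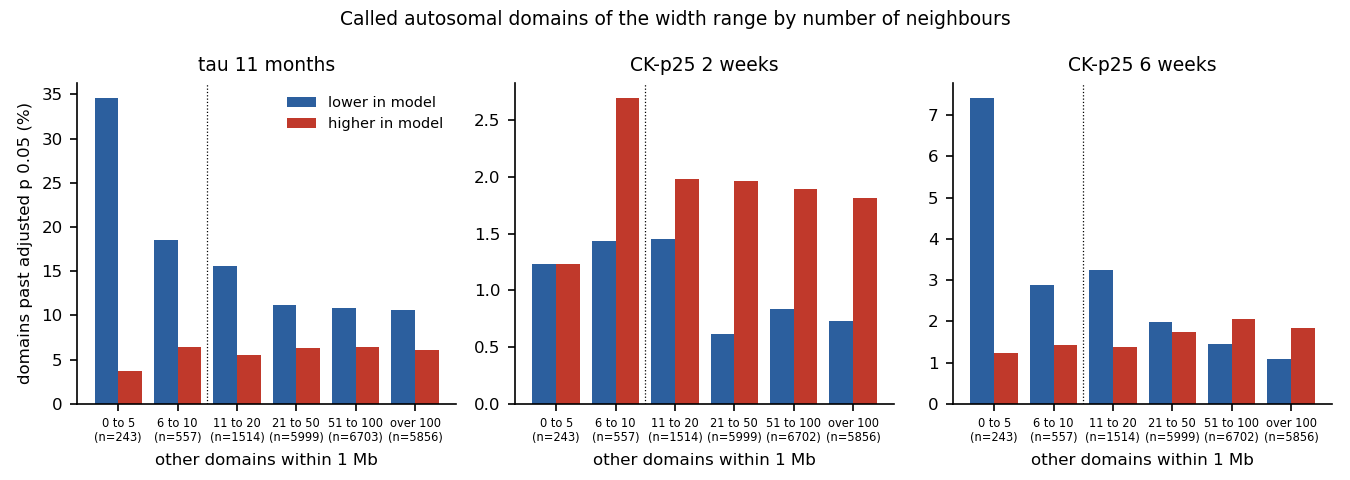
Percent of autosomal domains 776 to 4999 bp wide that were lower (blue) or higher (red) in the diseased mice at an edgeR adjusted p under 0.05, by number of other domains within 1 Mb; the dotted line marks the limit of the deserts, and the vertical scale differs between panels. At 11 months the blue bar is 34.6% at 0 to 5 neighbours and 10.7% above 100, while the red bars stay between 3.70% and 6.46%.

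The losses lay mainly in the wider desert domains. At 11 months 26 of 298 desert domains of 776 to 1499 bp were lower (8.72%), 61 of 296 of 1500 to 2499 bp (20.6%) and 100 of 206 of 2500 to 4999 bp (48.5%). In same-width domains these shares were 6.51%, 11.1% and 21.4%. In the widest class the median level was 73.5 CPM in deserts and 76.0 CPM elsewhere. Wide domains hold more reads, which eases detection, and how far this accounts for the shares was not tested. Over all desert domains, called or not, the median log2 change was -0.02, -0.05 and -0.21 from the narrowest to the widest class. In same-width domains it was 0.02, -0.0008 and -0.03. Among domains of 40 CPM or more, 126 of 380 desert domains (33.2%) were lower, against 15.0% of same-width domains, and under 10 CPM 2.73% were, against 5.00%. Domains called lower had a median width of 2583 bp and 20.1 CPM per kb. Those called higher were at 1954 bp and 14.2 CPM per kb. Losses were found on all 19 autosomes and in 138 stretches, gains on 14 autosomes and in 38 stretches.

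The strongest evidence for a loss at 11 months was at chr7:48153235-48156495, a 3261 bp domain with 6 neighbours. Wild type libraries were at 102, 98.0 and 93.1 CPM and tau libraries at 49.3, 60.8 and 42.1 CPM. All tau values lay far below all wild type values. The log2 change was -0.97 ± 0.08 (SE), with an edgeR adjusted p of 6.9e-15. At 6 months the same domain was at 81.3 and 78.3 CPM in tau and at 79.0, 72.5 and 74.95 CPM in wild type mice, and the groups overlapped.

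The largest loss in size was at chr6:65768348-65770897 (2550 bp, 7 neighbours, nearest domain at 40.4 kb). Wild type libraries at 11 months were at 25.2, 26.1 and 22.9 CPM and tau libraries at 6.39, 7.75 and 7.91 CPM. The mark was thus 3.36-fold lower in tau mice (log2 -1.75 ± 0.16 SE; edgeR adjusted p = 2.34e-13). At 6 months tau libraries were at 20.3 and 31.5 CPM and wild type libraries did not exceed 22.2 CPM. At this domain CK-p25 libraries lay below CK libraries at both times and passed the test at neither (edgeR adjusted p = 0.174 and 0.104): 15.7 to 19.6 against 22.7 to 30.4 CPM at 2 weeks, and 11.5 to 17.8 against 20.2 to 30.6 CPM at 6 weeks.

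Among the 8 next losses by evidence the log2 changes ran from -0.86 to -0.69. At chr5:27587782-27592308, 4527 bp wide, the mark was 72.5 ± 5.07 CPM (SD, n = 3) in wild type and 39.97 ± 2.04 CPM (n = 3) in tau mice. At chr15:71555446-71559114, with 1 neighbour and the nearest domain 820 kb away, it was 85.9 ± 2.05 and 49.7 ± 7.37 CPM. At chr12:14154929-14159715, whose nearest domain was 846 kb away, it was 106 ± 9.72 and 66.5 ± 7.11 CPM. Further losses of this set were at chr14:40286276-40288324 (-0.85), chr6:96062491-96067483 (-0.85), chr17:90853173-90855853 (-0.79), chr7:64845383-64848105 (-0.72) and chr3:72859161-72861838 (-0.71).

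Gains at 11 months were led by chr9:85218538-85222314, a 3777 bp domain with 2 neighbours and the nearest domain 423 kb away. Wild type libraries were at 41.8, 33.8 and 35.4 CPM and tau libraries at 74.3, 63.0 and 71.8 CPM. The log2 change was 0.91 ± 0.08 (SE), with an edgeR adjusted p of 2e-13. At 6 months all 5 libraries lay between 37.7 and 41.2 CPM. The second, chr9:116082002-116085155, was at 48.4, 48.4 and 53.2 CPM in wild type and at 72.8, 71.2 and 81.7 CPM in tau mice (log2 0.59 ± 0.08). The third, chr8:118226619-118230027, rose from 16.2 ± 3.11 to 31.6 ± 6.78 CPM (n = 3 each; log2 0.97 ± 0.14). The largest gain in size was at chr7:111500704-111501921, from 6.19 ± 0.516 to 14.9 ± 3.42 CPM, which is 2.43-fold.

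Among the 9 domains with no neighbour within 1 Mb, losses prevailed as well. At 11 months 7 of the 9 were lower in tau mice. The farthest from any other domain, chr16:81200411-81205365 (nearest at 2271 kb), was at 96.2, 103 and 92.0 CPM in wild type and at 81.6, 77.5 and 69.7 CPM in tau mice (log2 -0.34 ± 0.07, edgeR adjusted p = 9.6e-05). The strongest of them, chr6:79968531-79971905 (nearest at 1748 kb), was at 54.4, 59.9 and 54.8 CPM in wild type and at 32.5, 33.9 and 29.1 CPM in tau mice (log2 -0.83 ± 0.09, edgeR adjusted p = 1.6e-11). Further losses were -0.69 at chr15:16657848-16661264, -0.63 at chr2:81892131-81895732, -0.59 at chr1:32229099-32232592, -0.47 at chr8:30327841-30330188 and -0.33 at chr15:22965150-22967658. The other two, chr14:96917147-96918196 and chr17:59151740-59152938, were the narrowest at 1050 and 1199 bp and had log2 changes of -0.20 ± 0.19 and -0.10 ± 0.13.

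The 232 calls of 11 months lay in 166 stretches, of which 49 held 2 or more. Among these 49, 34 held losses alone, 5 gains alone and 10 both. Since most calls were losses, these counts do not show that neighbours agree beyond the overall share. In chr7:64641266-67150491, 5 of 8 members were lower. In chr17:90485209-91493313, 4 of 6 were lower and all 6 were negative, with a median log2 change of -0.45. All 3 members of chr11:41812223-42236347 were lower (median -0.76). These were chosen for their losses. Of the stretches with the most members, the largest held 10: in chr13:117798528-120277221, 3 were lower and 7 negative (median -0.04), and chr16:63856519-65816183, with 9 members, had 2 lower (median -0.02). Of the 8 members of chr15:32707994-34237520, 3 were lower and 1 was higher.

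The calls at 11 months moved with the cross correlation of the libraries. With this value as a covariate 47 desert domains passed, 43 lower and 4 higher. The share of all domains passing in this fit was not counted, so a larger share of losses in deserts is not shown there. Of the 187 losses, 183 kept their sign and the median log2 change went from -0.50 to -0.48, while the median standard error went from 0.09 to 0.19. All 45 gains kept their sign, with a median of 0.53 against 0.50, and a standard error of 0.27 against 0.12. The 10 losses with the strongest evidence still passed, and 4 of the 10 gains did. Among those that no longer passed were chr9:116082002-116085155 at 0.53 and chr7:111500704-111501921 at 1.34. Because cross correlation separates the genotypes completely, genotype and enrichment cannot be told apart.

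At 110 desert domains tau and age interacted in the edgeR fit, against a background of 4.23% of all domains. The tau effect was more negative at 11 months at 92 (11.5%; 3.21% of all domains) and more positive at 18 (2.25%; 1.02% of all). Same-width domains, split by number of neighbours, had 4.30% to 7.73% more negative and 1.19% to 1.81% more positive. All 110 were among the domains called at 11 months, which share libraries with this test. Side by side, the 187 losses of 11 months had a median log2 change of -0.04 at 6 months, and the 45 gains -0.06. At chr6:65768348-65770897 the difference was -2.03 ± 0.23 (SE), and at chr7:48153235-48156495 it was -1.05 ± 0.12. At chr9:85218538-85222314 it was 0.98 ± 0.14. Without tau replicate 1 at 6 months, 64 domains passed, and with cross correlation as a covariate 30 did.

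In CK-p25 mice 2 weeks after induction, 29 desert domains differed from CK mice, against 2.12% of all domains. The mark rose at 18 (2.25%; 1.51% of all domains, 1.9% of same-width domains) and fell at 11 (1.38%; 0.613% and 0.787%). Gains were larger, at a median of 0.84 on the log2 scale, where losses had -0.43, and 14 gains and 0 losses were at least 1.5-fold. The count rested on single libraries: without CK replicate 2 it was 11, without CK-p25 replicate 2 it was 15, and without CK-p25 replicate 3 it was 18. The DESeq2 Wald test called 8, all higher, against 0.801% of all domains.

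Gains at 2 weeks were led by the same chromosome 9 domains. At chr9:116082002-116085155 CK libraries were at 51.3, 40.5 and 47.6 CPM and CK-p25 libraries at 70.3, 88.5 and 90.3 CPM (log2 0.85 ± 0.11 SE, edgeR adjusted p = 1.43e-09). At chr9:85218538-85222314 they were at 43.0, 35.1 and 33.9 against 57.7, 74.4 and 66.0 CPM (log2 0.82 ± 0.11). All 3 members of a stretch on chromosome 7 followed. At chr7:111392828-111393811 the mark was 8.64 ± 2.55 CPM in controls and 21.6 ± 3.17 CPM after induction of p25, 2.43-fold higher. Its neighbours chr7:111462942-111463913 and chr7:111500704-111501921 were 2.39-fold and 2.19-fold higher. DESeq2 also called these 5 domains.

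One gain of 2 weeks outside the 10 with the strongest evidence, chr14:44502831-44503664, is given here because of its counts and was picked after its values were seen. CK libraries held 0, 0 and 5 reads and CK-p25 libraries 34, 16 and 17 reads (edgeR adjusted p = 0.0148, DESeq2 adjusted p = 0.133). At 6 weeks CK libraries held 11, 5 and 10 reads and CK-p25 libraries 15, 30 and 9, with overlapping levels. The level in CK controls thus differed between the times as well.

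Losses at 2 weeks were small. The one with the strongest evidence, chr8:101937537-101941974, had 1 neighbour and was at 108, 112 and 114 CPM in CK and at 93.2, 68.2 and 89.6 CPM in CK-p25 libraries. The log2 change was -0.41 ± 0.09 (SE, edgeR adjusted p = 0.0018; DESeq2 adjusted p = 0.0727), and without CK-p25 replicate 2 it was -0.28 and did not pass. At chr8:77736500-77739122 the groups were narrow, 55.6 ± 1.54 CPM in controls and 39.3 ± 1.17 CPM after induction (n = 3 each; log2 -0.49 ± 0.11). All leave-one-out fits still called that domain, and DESeq2 did not (adjusted p = 0.0595).

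At 6 weeks 45 desert domains differed between CK-p25 and CK mice, against 2.65% of all domains, and losses now prevailed. The mark fell at 34 (4.25%; 1.33% of all domains, 1.64% of same-width domains) and rose at 11 (1.38%; 1.32% and 1.85%). The median log2 change was -0.44 for losses and 0.89 for gains. Of the 34 losses 27 were among the 206 domains of 2500 to 4999 bp (13.1%, against 5.13% of same-width domains), and the median width was 3355 bp. There were 21 calls without CK replicate 2, 26 without CK replicate 3, and 21 if CK-p25 replicate 1 was left out. Without both shallow libraries 16 passed, 8 higher and 8 lower, and DESeq2 called 22, against 2.16% of all domains.

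The strongest loss at 6 weeks was at chr6:96062491-96067483, at 4993 bp the widest desert domain. CK libraries were at 106, 103 and 115 CPM and CK-p25 libraries at 66.9, 71.1 and 61.8 CPM (log2 -0.67 ± 0.10 SE, edgeR adjusted p = 2.59e-06). At 2 weeks the groups overlapped there, at 90.2, 114 and 126 against 90.3, 88.3 and 98.99 CPM. The largest of the leading losses was at chr2:110788865-110790860, at 48.3, 58.5 and 43.5 CPM in controls and at 27.7, 26.1 and 26.7 CPM after induction, which is 1.87-fold lower. At chr12:14154929-14159715 the mark was 108 ± 4.42 CPM in controls and 75.9 ± 6.25 CPM after induction, and at chr2:55287731-55291265 it was 103 ± 1.78 and 71.9 ± 7.34 CPM. Of the 9 domains without a neighbour, 3 were lower at 6 weeks: chr15:16657848-16661264 (-0.56), chr2:81892131-81895732 (-0.53) and chr1:32229099-32232592 (-0.44). Of these 3, only the second was followed through fits that leave out a library. It did not pass once replicate 1 of either group, or CK replicate 2, was left out.

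Gains at 6 weeks largely repeated those of 2 weeks, with which they share no library. Of the 11 gains 9 (81.8%) were also called at 2 weeks, 9 of the 18 there. For losses, 5 of 34 (14.7%) were called at 2 weeks, 45.5% of the 11. These overlaps were counted in deserts alone. At chr9:116082002-116085155 CK libraries were at 55.9, 49.4 and 45.6 CPM and CK-p25 libraries at 80.1, 81.0 and 102 CPM (log2 0.71 ± 0.12). At chr4:144835486-144836784 they were at 13.3, 10.4 and 17.2 against 26.5, 26.5 and 26.7 CPM, 2.01-fold higher. Between the times the effect of p25 differed at 0 of the 800 in edgeR's test, against a background of 0.00524% of all domains. At an unadjusted p under 0.05 there were 50 (6.25%; 4.76% of all domains), and DESeq2 called 0. Losses prevailing at 6 weeks and not at 2 weeks are therefore not shown to be a change between the times.

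**Figure D4:**
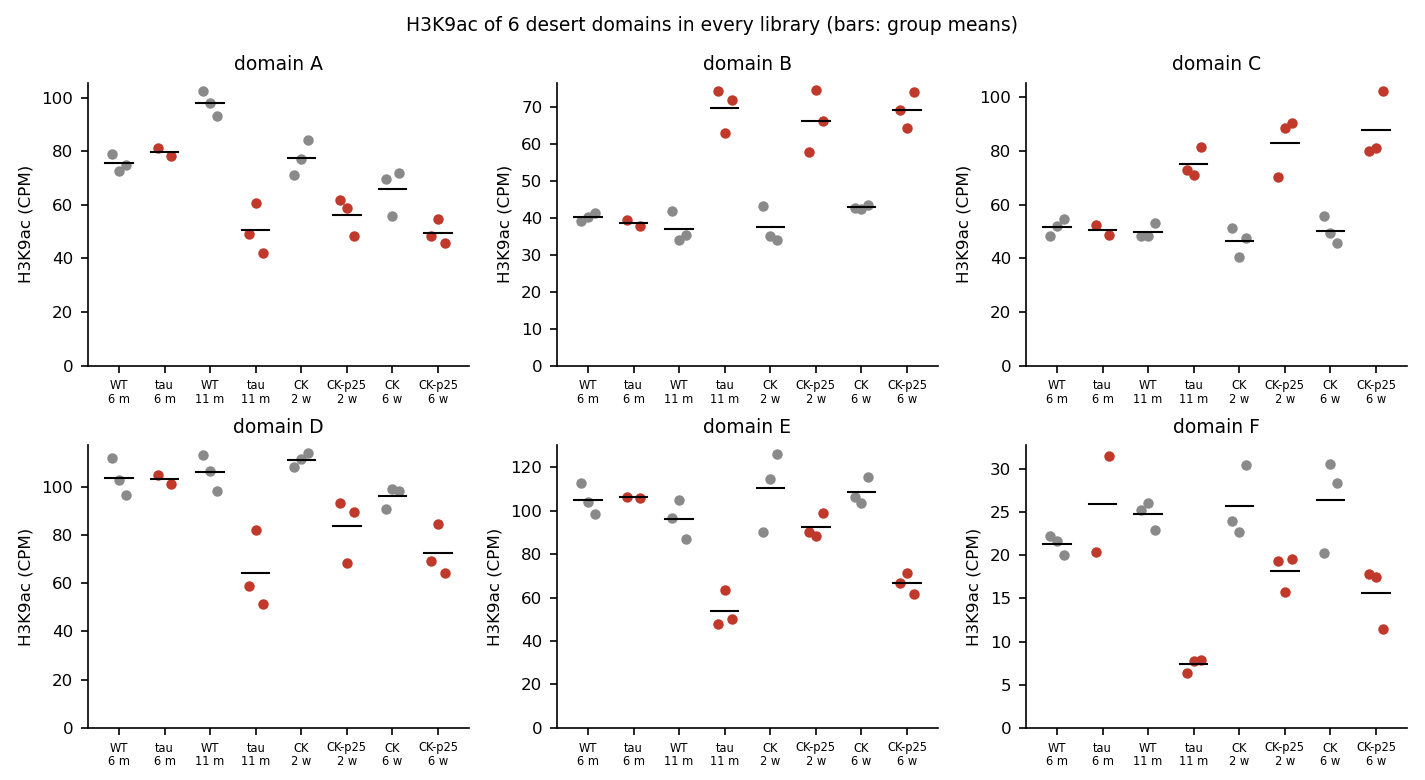
H3K9ac in CPM (vertical axis, from 0) of 6 desert domains in every library; points are libraries (grey control, red diseased) and bars group means. A is chr7:48153235-48156495, B chr9:85218538-85222314, C chr9:116082002-116085155, D chr8:101937537-101941974, E chr6:96062491-96067483 and F chr6:65768348-65770897. Diseased and control libraries separate at 11 months in all 6, while at 6 months they lie close together, except tau replicate 2 in F at 31.5 CPM; in B and C the CK-p25 libraries lie above CK libraries at both times.

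Domains called in both mouse models went the same way. Of the 18 gains at 2 weeks 13 (72.2%) were also gains in tau mice at 11 months (28.9% of 45), and all 11 losses were losses there (5.88% of 187). At 6 weeks all 11 gains (24.4% of 45) and 32 of 34 losses (94.1%; 17.1% of 187) were shared, and 0 domains were called in opposite directions. The models have no library in common and used different antibody lots. How often calls coincide between the models was not counted over all domains, so this overlap is not shown to be particular to desert domains. Of the 232 desert domains called in tau mice at 11 months, 179 were called at neither CK-p25 time and 53 at one or both. Against 6 weeks alone, 43 were called in both, 189 in tau mice and not at 6 weeks, and 2 at 6 weeks and not in tau mice. The 187 losses of tau mice had median log2 changes of -0.18 at 2 weeks (168 negative) and -0.29 at 6 weeks (174 negative). The 45 gains had 0.27 (38 positive) and 0.33 (37 positive).

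**Figure D5:**
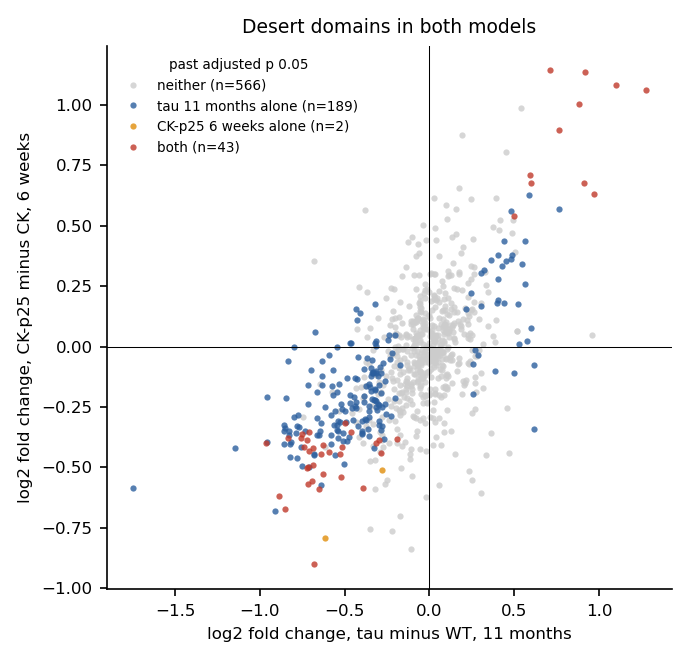
Log2 fold change in CK-p25 mice at 6 weeks (vertical axis) against tau mice at 11 months (horizontal axis) for the 800 desert domains; colours show in which comparison edgeR's adjusted p was under 0.05. The 43 domains called in both lie in the lower left or the upper right, and 189 were called in tau mice and not in CK-p25 mice at 6 weeks.

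In all, 14 desert domains were called in the same direction in tau mice at 11 months and in CK-p25 mice at both times, 9 higher and 5 lower. Such domains were not counted outside the deserts. The gains were both chromosome 9 domains, the 3 domains of chr7:111392828-111501921, chr7:95426034-95428183, chr6:3348148-3349659 and a pair on chromosome 4. At chr7:95426034-95428183 CK libraries were at 19.2 to 21.8 CPM and CK-p25 libraries at 29.0 to 34.6 CPM over both times. At chr6:3348148-3349659 the log2 changes were 1.10 ± 0.18 (SE) in tau mice at 11 months, 0.87 ± 0.21 at 2 weeks and 1.08 ± 0.24 at 6 weeks. The pair on chromosome 4, chr4:144481377-144485379 and chr4:144835486-144836784, together span 0.355 Mb and rose by 0.50 and 0.88 in tau mice. The losses were chr2:55287731-55291265, chr2:110788865-110790860, chr3:72859161-72861838, chr7:48153235-48156495 and chr8:101937537-101941974. In tau mice these fell by 0.72, 0.68, 0.71, 0.97 and 0.75 on the log2 scale, and in CK-p25 mice at 6 weeks by 0.50, 0.90, 0.43, 0.40 and 0.36. None of the 14 passed at 6 months, where their log2 changes lay between -0.20 and 0.39. How firmly each was called differed. In tau mice 12 of the 14 passed in all 6 fits that leave out 1 library, while chr7:95426034-95428183 ended without tau replicate 3 and chr7:111462942-111463913 without tau replicate 3 or wild type replicate 3. At 2 weeks 6 of the 14 passed in all 6 such fits and DESeq2 called 7. At 6 weeks 7 did and DESeq2 called 9. The weakest was chr8:101937537-101941974 at 6 weeks, which passed in 1 of 6 fits. Only 2 of the 14, chr9:85218538-85222314 and chr9:116082002-116085155, passed in all 6 fits of all 3 comparisons. With cross correlation as a covariate, 4 of the 14 still passed in tau mice, 13 at 2 weeks and 9 at 6 weeks. Those 4 were chr9:85218538-85222314, chr4:144481377-144485379, chr7:48153235-48156495 and chr3:72859161-72861838, and all but the last passed at both CK-p25 times too. The 10 that no longer passed in tau mice had edgeR adjusted p from 0.0804 to 0.654 and kept their sign. They include chr9:116082002-116085155 (0.53, adjusted p = 0.0991), chr6:3348148-3349659 (0.78, adjusted p = 0.458) and chr4:144835486-144836784 (1.02, adjusted p = 0.112).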

How the data were processed

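The deposited counts are raw reads per domain for a domain set common to all libraries, without normalization, and per the labels' design text the input DNA (22 libraries, not analysed here) entered domain calling. The deposited domain list has a score column that is 0 in every row and was not used. BWA, Picard 1.1175 and MACS2 and the build mm9 are named in the submitters' processing notes, with no roles. No source used here says whether libraries were pooled for calling. Coordinates are 1-based on mm9. No mm9 genome or annotation was used, so no gene names or sequences are given, and the gene and marker lists that had been drawn up were not tested. The 23 H3K9ac libraries were placed in 8 groups by their labels, and 0 count columns lacked a sample.

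The tau and CK-p25 series were fitted apart, because their antibody lots differ, with edgeR 4.0.16 in R 4.3.3 (quasi-likelihood F test, robust dispersions, TMM factors, filterByExpr, a mean per group). The tests were two-sided, and p-values were adjusted by Benjamini-Hochberg over the whole table, and calls were made at 0.05. Standard errors are the size of the log2 change divided by the square root of F. The fits were checked on simulated counts. DESeq2 1.42.0 was the other test. Depth was 0.996 to 6.18 M reads per library, and chi-square per degree of freedom between replicates was 1.10 to 1.88 over 22 pairs. No library was thus a plain copy of another of its group. Values near 1 cannot tell technical duplicates from separate animals.

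Members, lists and tests were chosen with earlier results of these data known. The domains named are the 10 with the smallest adjusted p per comparison and direction among called domains that changed by 0.3 or more (log2), 5 per direction for differences, the 10 most isolated, the 10 with the highest level per kb, the 5 stretches with most members, and those called alike in tau mice (11 months) and at each CK-p25 time.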

Additional observations from a re-analysis of the deposited data

Results flagged for a closer look

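Tau and age interacted at 110 desert domains (edgeR, adjusted p under 0.05; background 4.23% of all domains). The older mice were males and the younger ones females, so age and sex cannot be told apart. The most negative difference among the named domains was -2.03 at chr6:65768348-65770897. It was -1.05 at chr7:48153235-48156495, -0.95 at chr5:27587782-27592308, -0.87 at chr6:96062491-96067483 and -0.84 at chr15:71555446-71559114, all on the log2 scale. The 5 named differences in the other direction were 1.124 at chr8:118226619-118230027, 0.98 at chr9:85218538-85222314, 0.71 at chr18:7625417-7627370, 0.62 at chr9:116082002-116085155 and 0.62 at chr8:118230305-118232669.

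At chr8:118226619-118230027 the controls differed between the ages too: wild type libraries were at 22.2, 26.6 and 27.9 CPM at 6 months and at 17.3, 12.6 and 18.5 CPM at 11 months, while tau libraries were at 22.5 and 23.6 and at 31.9, 24.7 and 38.3 CPM. At chr18:7625417-7627370 the difference includes a log2 change of -0.40 at 6 months, which did not pass there, and without tau replicate 1 at 6 months it was 0.53 and did not pass.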

How the results depend on the processing

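No domain named for its adjusted p and no read share changed sign under an alternative run. Domains named only for isolation, level or stretch were not followed through these runs. Of the 187 losses of 11 months, 4 changed sign with cross correlation as a covariate. With 5 or fewer neighbours within 500 kb as the limit (905 domains), 27 passed at 2 weeks, 12 higher and 15 lower, against 18 higher and 11 lower. With 5 or fewer neighbours as the limit the counts of called domains were 93 for tau at 11 months, 6 and 21 for CK-p25 at 2 and 6 weeks and 49 for the difference between the ages, and with 20 or fewer they were 551, 81, 115 and 245. These sets hold 243 and 2314 domains. A threshold of 0.01 left 18 at 2 weeks and 22 at 6 weeks, and the DESeq2 Wald test called 8 and 22. The share of all domains passing at 0.01 was not counted. For tau at 11 months the DESeq2 Wald test called 165, 29 higher and 136 lower, and for the difference between ages 75. For the 165 and the 75 the share of all domains is not given here. With cross correlation as a covariate 47 passed at 11 months and 30 for the difference between ages, at wider standard errors. Without both shallow 6-week libraries 16 passed. Leaving out single libraries gave 177 to 249 at 11 months, 0 at 6 months, 11 to 34 at 2 weeks, 21 to 55 at 6 weeks, 64 to 131 for the difference between ages and 0 to 1 for that between times. Where this left a single tau library at 6 months, that library was assumed to vary like the other groups. The cause of these shifts was not tested. For edgeR runs with a covariate, a replicate block, other scaling or fewer libraries, the share of all domains passing was not counted. Whether losses in deserts exceeded those elsewhere in these runs is therefore not shown.

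As a share of reads in domains of the same width, the difference was -0.266 percentage points at 11 months and -0.264 at 6 weeks. With 20 or fewer neighbours it was -0.323 and -0.309, and -0.0764 at 6 months, and with 5 or fewer it was -0.115 at 11 months. At 2 weeks the difference was -0.0498 points with 5 or fewer neighbours and -0.110 with 20 or fewer. Under both of these limits the 2-week groups overlapped. Leaving out single libraries gave -0.232 to -0.157 points at 11 months, -0.0804 to -0.000148 at 6 months, -0.116 to -0.0545 at 2 weeks and -0.228 to -0.155 at 6 weeks.

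With the replicate number as a block 239 desert domains passed at 11 months, 34 at 2 weeks, 59 at 6 weeks, 111 for the difference between ages, and 0 at 6 months and between the times. Same-numbered libraries deviated together with a correlation of at most 0.077, which does not settle whether the numbers mark pairs. At 11 months the same-numbered correlations were 0.021, 0.067 and 0.059, and all others were negative. Deviations were taken from group means, so positive same-numbered values push the others toward negative ones by arithmetic. Of the alternative values for single domains named for their adjusted p, 884 kept their side of the threshold and 86 did not pass it. Depth was lowest at 6 weeks, where both shallow libraries held 0.996 and 1.31 M domain reads.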
